A study of Mus musculus with 20 samples.

Results

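The 6 genes described here are those of adult hemoglobin and of 2 further proteins of the red blood cell. *Hba-a1* and *Hba-a2* encode alpha-globin, *Hbb-bs* and *Hbb-bt* encode beta-globin, *Alas2* encodes the erythroid form of the first enzyme of heme synthesis, and *Slc4a1* encodes band 3, the anion exchanger of the red-cell membrane. They were chosen by symbol and matched to the gene identifiers of the files, which gave 6 of 55573 genes. Liver RNA was sequenced from 20 male mice in 4 groups of 5. Titan mice, also known as DU6, are a non-inbred line selected for high body mass, and the control mice are the unselected, outbred line. Each line was sampled at 11 weeks and at 19–21 weeks of age, and all 4 groups ate the standard breeding feed. Selection acts on the whole genome, so a difference between the lines cannot be ascribed to 1 locus, and the lines carry no engineered allele.

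Hemoglobin carries oxygen and is built from alpha and beta chains that each hold a heme group. In adult mice, red-cell precursors in the bone marrow and spleen make the chains from duplicated genes, while the liver makes blood only before and shortly after birth. The adult liver holds much blood, clears hemoglobin and heme from plasma, and regulates iron. Each of the globin pairs has nearly identical copies, so reads that match both copies are lost when only uniquely mapped reads are counted.

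*Hba-a1* (ENSMUSG00000069919) lies on chromosome 11 at chr11:32283511-32284465, plus strand, and *Hba-a2* (ENSMUSG00000069917) at chr11:32296489-32297298, plus strand, in the GRCm38 build. *Hbb-bs* (ENSMUSG00000052305, chr7:103826534-103828096) and *Hbb-bt* (ENSMUSG00000073940, chr7:103812524-103813996) lie on the minus strand of chromosome 7. *Alas2* (ENSMUSG00000025270, chrX:150547375-150570638, plus strand) has 11 exons and *Slc4a1* (ENSMUSG00000006574, chr11:102348824-102366203, minus strand) has 20. The alpha-globin coding sequences of 429 bases encode 142 residues, had 99.77% identity and differed at 1 base, C381T. This is given as the *Hba-a1* base, the position from the first coding base and the *Hba-a2* base. The beta-globin coding sequences of 444 bases encode 147 residues, also had 99.77% identity and differed at 1 base, C417T, with the *Hbb-bs* base first. Neither difference changes a residue, and both lie in exon 3. The 49 coding bases around each are shown because these are the only coding positions at which a read can be given to a single copy, and the capital letter marks the differing base. They lie at chr11:32284319-32284367, chr11:32297136-32297184, chr7:103826668-103826716 and chr7:103812659-103812707.
Hba-a1: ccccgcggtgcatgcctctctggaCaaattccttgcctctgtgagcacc
Hba-a2: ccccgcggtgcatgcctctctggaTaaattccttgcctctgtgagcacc
Hbb-bs: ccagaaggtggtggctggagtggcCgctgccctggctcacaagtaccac
Hbb-bt: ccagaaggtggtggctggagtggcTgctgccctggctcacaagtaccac

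The annotated transcripts of the copies also differ in their untranslated ends. Windows of these transcripts were compared with annotated transcripts only, not with the genome to which reads were mapped. Of the 50-base windows of each transcript, 32.46% were found in no transcript of another gene for *Hba-a1* (211 of 650) and 13.07% for *Hba-a2* (66 of 505). The share was 34.2% for *Hbb-bs* (198 of 579) and 41.74% for *Hbb-bt* (273 of 654), and it was 100% for *Alas2* and *Slc4a1*. With 100-base windows it was 43.5% for *Hba-a1*, 25.49% for *Hba-a2*, 37.43% for *Hbb-bs* and 45.2% for *Hbb-bt*. The read length is not given in the sources used here. The annotated *Hba-a1* transcript begins upstream of its RefSeq start, where 97 bases match those upstream of *Hba-a2*. Its share is therefore an upper limit of the part to which a read can be assigned. The counts of a globin gene are thus a part of its RNA, and that part differs between genes.

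**Figure D1:**
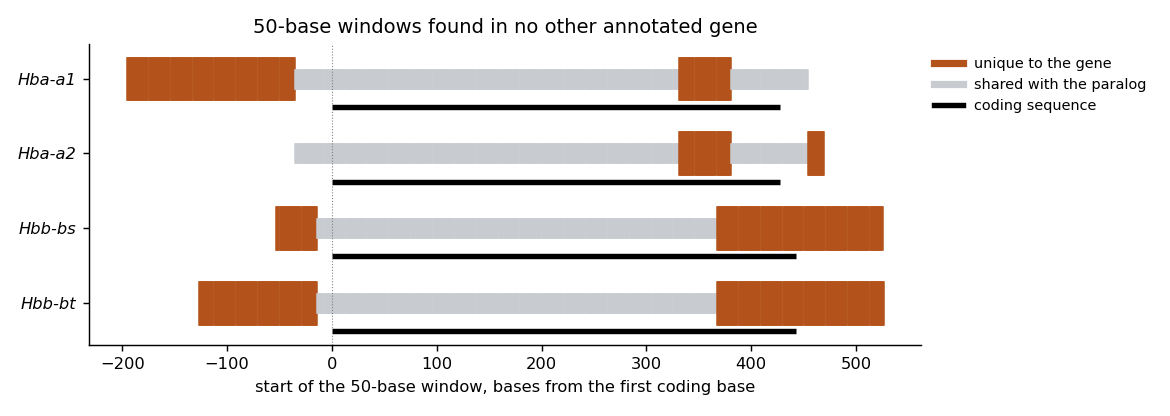
Start positions of the 50-base windows along the 4 globin transcripts, in bases from the first coding base. Windows unique to the gene among annotated transcripts are in orange, windows shared with the paralog in grey and the coding sequence as a black bar. Unique windows sit around the differing base near the end of the coding sequence and in the untranslated ends, and *Hba-a2* has the fewest, 66 of 505.

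Upstream, the alpha copies shared their sequence. The 100 bases before the RefSeq start sites (GRCm38.p6) of *Hba-a1* and *Hba-a2* were identical over 97 bases once shifted by 3, whereas *Hbb-bs* and *Hbb-bt* differed at 26 of 99. A CCAAT box and a TATAA box, elements at which the transcription machinery is known to assemble, stood in all 4 windows. The 30 reference bases around each box are shown for the 4 globin genes, and the capitals mark the box. The alpha copies did not differ there in the reference, and the sequence of either line was not examined. The CCAAT stretches lie at chr11:32283572-32283601, chr11:32296389-32296418, chr7:103827987-103828016 and chr7:103813981-103814010.
Hba-a1: agcacaaaccagCCAATgagaactgctcca
Hba-a2: agcacaaaccagCCAATgagaactgctcca
Hbb-bs: ccctggtaagggCCAATctgctcacacagg
Hbb-bt: ccctggcattggCCAATctgctcagagagg
The TATAA stretches lie at chr11:32283633-32283662, chr11:32296450-32296479, chr7:103827940-103827969 and chr7:103813934-103813963.
Hba-a1: ccttggagggcaTATAAgtgctacttgctg
Hba-a2: ccttggagggcaTATAAgtgctacttgctg
Hbb-bs: cagggcagagcaTATAAggtgaggtaggat
Hbb-bt: cagcattgggtaTATAAagctgagcagggt
The beta copies differed at 5 of 30 bases around CCAAT and at 13 of 30 around TATAA. In the 250 bases before the start, on both strands, CCAAT stood in 33.8% and TATAA in 22.8% of 32851 promoters, so a match is common. The motif GATAA, in letters that GATA factors are known to bind, stood once in each of the 4 globin windows and once in that of *Alas2*, and in 22.6% of all promoters. CACCC, letters that the erythroid factor Klf1 binds, stood in all of these windows too, and in 52.0% of promoters. Each motif was also searched on the other strand, and matches of TATAA on both strands may overlap, as they do in *Alas2*. In GENCODE *Hba-a1*, *Hbb-bs* and *Hbb-bt* begin upstream of the RefSeq start, so all or a part of their stretches lies inside the annotated gene.

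The reads counted on genes numbered 6794935 in the shallowest library and 23295028 in the deepest, with a median of 12547300. Values are CPM, reads of a gene scaled to a common library size, after normalization between libraries (TMM). The hepatocyte list summed to 101100 to 140300 CPM over the mice, in libraries labelled as liver. Genes that define red-cell precursors had few reads. *Gata1*, the main erythroid transcription factor, had at most 2 reads in a mouse. *Hemgn*, a nuclear factor of erythroid precursors, had at most 4. *Ahsp*, the chaperone of alpha-globin, was not analysed here. The 4 adult globins together took 0.00679% to 0.0251% of the reads on genes. In these bulk samples, fewer red cells and less RNA per cell cannot be told apart.

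*Hba-a2* was counted in every Titan mouse and was at or near 0 in every control. In 11-week-old Titan mice it reached 9.10, 12.8, 7.15, 8.84 and 13.4 CPM, from 89 to 319 reads. In 19–21-week-old Titan mice the values were 17.4, 9.09, 9.24, 17.5 and 7.73 CPM, from 76 to 207 reads. Of the 11-week-old controls, 4 had no read and 1 had a single read (0.0690 CPM), and the same held at 19–21 weeks (0.0540 CPM). The lines did not overlap at either age. Against a limit of 3 counts per control library, *Hba-a2* was at least 49.3-fold higher in Titan mice at 11 weeks and at least 45.6-fold higher at 19–21 weeks. Over all 13784 genes tested, 11.9% did not overlap between the lines at 11 weeks and 7.62% at 19–21 weeks. The genes were chosen with the comparison of the lines known, so no test is given for it here, and nothing is read from these counts. *Hba-a2* passed the filter on low counts through the Titan mice alone.

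*Hba-a1*, the other alpha copy, was present in all mice. The 11-week-old controls had 25.3, 17.99, 11.5, 14.5 and 17.7 CPM. The 11-week-old Titan mice had 10.3, 18.2, 9.56, 13.1 and 17.98 CPM. The lines overlapped, and 4 of the 5 controls were above the Titan mean of 13.8 ± 4.12 CPM (SD, n = 5). At 19–21 weeks the controls had 19.98, 21.2, 15.2, 17.8 and 23.99 CPM. The Titan mice of that age had 22.97, 10.4, 12.4, 21.2 and 11.9 CPM, with 2 mice at the level of the controls and 3 below the lowest control. Titan against control had a log2 fold change of -0.32 (SE 0.24) at both ages.

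The sum of the alpha copies went the other way. It was 17.4 ± 5.15 CPM in younger controls and 24.1 ± 6.76 in 11-week-old Titan mice (SD, n = 5 each). At 19–21 weeks it was 19.6 ± 3.32 CPM in controls and 27.9 ± 10.6 in Titan mice. In log2 terms the sum differed by 0.48 (SE 0.24) at 11 weeks and 0.51 (SE 0.24) at 19–21 weeks, and the groups overlapped at both ages. As only reads unique to a copy are counted, the sum covers the parts in which the copies differ.

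**Figure D2:**
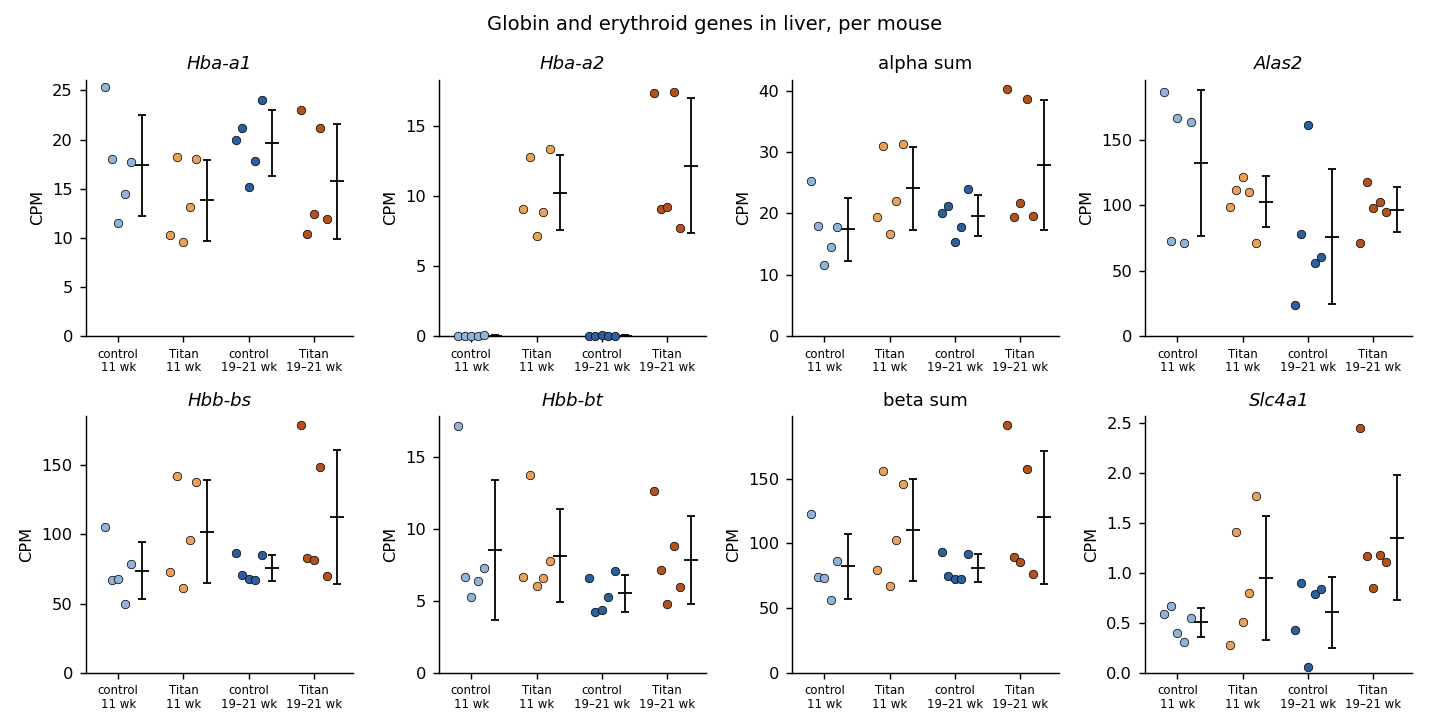
CPM (linear axes from 0) of each gene and of the alpha and beta sums in each mouse, by line and age, with the mean and SD of the 5 mice of a group beside the points. *Hba-a2* is at or near 0 in all 10 control mice and between 7.15 and 17.5 CPM in the 10 Titan mice, and the groups overlap between the lines in every other panel.

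As a share of alpha-globin reads, *Hba-a2* was nearly constant within the Titan line. It took 46.98%, 41.31%, 42.79%, 40.27% and 42.70% in the 11-week-old Titan mice, a mean of 42.81% ± 2.55 (SD, n = 5). In the 19–21-week-old Titan mice it took 43.10%, 46.73%, 42.70%, 45.20% and 39.39%, a mean of 43.42% ± 2.78. The narrowest 95% Wilson interval, of the mouse with 747 alpha reads, ran from 39.2% to 46.28%, and all 10 Titan shares fell within 39.39% to 46.98%. Controls had at most 0.3876% at 11 weeks and 0.3534% at 19–21 weeks. A count of 0 allows a share of up to 1% to 1.39% in the 11-week-old controls and up to 1.05% to 2.22% in the older ones. These intervals and limits cover counting error only. With both copies present, a share of reads follows the unique part of each copy as well as its RNA, and the shares here are of uniquely mapped reads.

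*Hbb-bs* held most of the uniquely mapped beta-globin reads in each mouse, which does not rank the RNA of the copies. The 11-week-old controls had 105.7, 67.2, 67.7, 49.7 and 78.9 CPM. The 11-week-old Titan mice had 72.7, 142.4, 61.1, 96.3 and 138.2 CPM, of which 2 lay above all controls. The 19–21-week-old controls lay close together at 86.5, 70.6, 68.1, 67.2 and 85.1 CPM. The 19–21-week-old Titan mice spread from 70.1 to 179.0 CPM, with 179.0 and 148.7 in 2 mice and 82.8, 81.2 and 70.1 in the others. These 3 overlapped the controls. For Titan against control, the log2 fold change was 0.47 (SE 0.26) at 11 weeks and 0.57 (SE 0.26) at 19–21 weeks. The same 2 older Titan mice, replicates 1 and 4, were the highest for *Hbb-bs*, *Hba-a1* and *Hba-a2*.

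*Hbb-bt*, the other beta copy, had low counts of uniquely mapped reads in all groups. The 11-week-old controls had 17.1, 6.66, 5.25, 6.34 and 7.24 CPM, and the Titan mice of that age had 6.62, 13.8, 5.98, 6.55 and 7.73 CPM. In each of these groups, 1 mouse stood apart above the other 4. At 19–21 weeks the controls had 6.604, 4.24, 4.32, 5.27 and 7.05 CPM and the Titan mice 12.6, 7.13, 4.74, 8.77 and 5.95 CPM. Titan against control had a log2 fold change of -0.06 (SE 0.31) at 11 weeks and of 0.51 (SE 0.33) at 19–21 weeks. The former had no settled sign and was 0.35 without the 11-week-old control at 17.1 CPM. *Hbb-bt* took 9.976% ± 2.68 of beta-globin reads in younger controls, 7.546% ± 1.62 in younger Titan mice, 6.730% ± 0.865 in older controls and 6.688% ± 1.17 in older Titan mice (SD, n = 5 each). These shares overlapped between the lines at both ages, unlike that of *Hba-a2*.

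**Figure D3:**
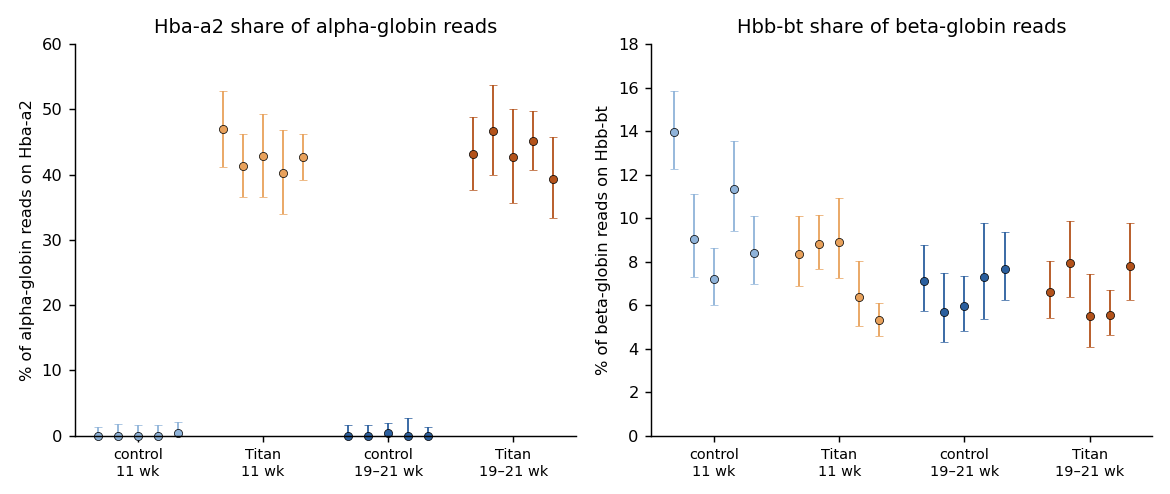
Percentage of alpha-globin reads on *Hba-a2* (left) and of beta-globin reads on *Hbb-bt* (right) in each mouse, with 95% Wilson intervals as bars; the axes differ. The *Hba-a2* share is at most 0.3876% in controls and 39.39% to 46.98% in Titan mice, while the *Hbb-bt* shares of the lines overlap.

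The sum of the beta copies was 82.4 ± 25.03 CPM in 11-week-old controls and 110.3 ± 39.5 in Titan mice of that age (SD, n = 5 each). At 19–21 weeks it was 80.97 ± 10.6 CPM in controls and 120.2 ± 51.3 in Titan mice. The log2 fold change was 0.42 (SE 0.26) at 11 weeks and 0.57 (SE 0.26) at 19–21 weeks, close to that of the alpha sum. Alpha reads per beta read were 0.214 ± 0.0388 in younger controls, 0.224 ± 0.0216 in younger Titan mice, 0.243 ± 0.0307 in older controls and 0.236 ± 0.0215 in older Titan mice. The ranges of this ratio overlapped in all 4 groups.

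*Alas2* varied most among the controls. The 11-week-old controls fell into 186.2, 166.7 and 163.8 CPM in 3 mice and 72.4 and 71.4 in the other 2. The 11-week-old Titan mice had 98.9, 111.3, 121.4, 110.4 and 71.1 CPM. The 19–21-week-old controls ranged most widely, from 23.5 to 161.6 CPM, with 78.2, 55.7 and 60.5 between them. The older Titan mice had 70.8, 117.8, 97.6, 102.0 and 94.6 CPM, which lay within the range of their controls. At 11 weeks the Titan mouse at 71.1 CPM was just below the lowest control, and the others lay within the control range. The coefficient of variation was 42.1% and 68.3% in the younger and older controls and 18.8% and 17.6% in the younger and older Titan mice. Titan against control differed on the log2 scale by -0.37 (SE 0.35) at 11 weeks and 0.34 (SE 0.35) at 19–21 weeks. Without the older control at 161.6 CPM (replicate 3), the latter was 0.83, and without the one at 23.5 CPM (replicate 1) it was 0.11. *Alas2* shares its locus with *Apex2* on the opposite strand, and 81.45% of its reads were kept when counted over both strands.

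*Slc4a1* was the lowest of the 6 genes. In 11-week-old controls it had 0.591, 0.666, 0.396, 0.305 and 0.552 CPM, from 5 to 8 reads. In the Titan mice of that age it had 0.276, 1.41, 0.511, 0.794 and 1.76 CPM, from 4 to 42 reads, so the Titan mice stood both below and above the controls. The 19–21-week-old controls had 0.429, 0.903, 0.0540, 0.791 and 0.839 CPM, from 1 to 10 reads. The 19–21-week-old Titan mice had 2.45, 1.17, 0.851, 1.18 and 1.10 CPM, from 7 to 18 reads, and 4 of the 5 were above all controls of their age. On the log2 scale Titan against control differed by 0.998 (SE 0.50) at 11 weeks and 1.23 (SE 0.52) at 19–21 weeks. All 5 older Titan mice, but none of the 11-week-old controls and 2 mice in each of the other groups, were above the filter's limit of 0.798 CPM, so *Slc4a1* passed the filter mostly through the Titan mice.

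Per kilobase of transcript, *Hbb-bs* was the highest in all 4 groups, at 117.6 ± 32.9 CPM per kb in younger controls and 178.9 ± 77.2 in 19–21-week-old Titan mice (SD, n = 5 each). *Alas2* came next at 64.8 ± 27.3, 50.4 ± 9.49, 37.3 ± 25.4 and 47.4 ± 8.33 CPM per kb in younger controls, younger Titan mice, older controls and older Titan mice. *Hba-a1* followed at 24.9 ± 7.37, 19.8 ± 5.89, 28.1 ± 4.77 and 22.5 ± 8.36 CPM per kb in the same order. In the Titan groups *Hba-a2* was at 18.5 ± 4.90 and 22.0 ± 8.71 CPM per kb, values within the SD of those of *Hba-a1*. *Hbb-bt* had 12.1 ± 6.92, 11.6 ± 4.56, 7.82 ± 1.83 and 11.2 ± 4.36 CPM per kb, and *Slc4a1* was far below at 0.110 to 0.297 CPM per kb. The mean ± SD of *Hbb-bs* and *Alas2* overlapped in 11-week-old controls, and those of *Alas2* and *Hba-a1* in 19–21-week-old controls. These levels divide the unique reads of the globins by the whole transcript length, and so place the globins lower than their RNA. As the unique part differs between genes, the levels do not compare the RNA of the copies with each other or with that of *Alas2*.

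With age, none of the genes that could be tested passed the threshold of an adjusted p of 0.05. In Titan mice, 0 of 6 passed (edgeR quasi-likelihood test, Benjamini-Hochberg adjustment over all genes tested), against 1.25% of all genes. The log2 fold changes of 19–21 against 11 weeks ran from -0.09 for *Alas2* (edgeR adjusted p = 0.94) to 0.42 for *Slc4a1* (edgeR adjusted p = 0.721). The alpha sum changed by 0.21 (SE 0.24, edgeR adjusted p = 0.734) and the beta sum by 0.12 (SE 0.26, edgeR adjusted p = 0.869). In controls, *Hba-a2* had too few reads for a test, and 0 of the other 5 passed, against 0.0871% of all genes. The largest change there was that of *Alas2*, at -0.79 (SE 0.35, 95% interval -1.48 to -0.10, edgeR adjusted p = 0.792), and without the older control at 161.6 CPM it was -1.28 (adjusted p = 0.219). The alpha sum changed by 0.18 (SE 0.24, edgeR adjusted p = 0.974) and the beta sum by -0.02 (SE 0.26, edgeR adjusted p = 1.0). At an unadjusted p under 0.05, edgeR gave 0 of 6 in Titan mice (15.6% of all genes) and 1 of 5 in controls (6.16% of all genes), and DESeq2 gave 0 and 2, with 0 past the adjusted threshold in either. The 95% intervals of the sums in Titan mice, -0.26 to 0.67 for alpha and -0.39 to 0.64 for beta on the log2 scale, leave room for a change in either direction.

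The age effects of the lines were compared by the interaction term of the same fit. *Hba-a2* again could not be tested, and 0 of the other 5 passed, with edgeR adjusted p between 0.73 (*Alas2*) and 1.0 and 0 at an unadjusted p under 0.05 with edgeR or DESeq2. Over all genes 0.00725% passed, and 8.93% had an unadjusted p under 0.05. The interaction was 0.71 (SE 0.50) for *Alas2* and 0.03 (SE 0.34) for the alpha sum on the log2 scale.

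The mice of a group differed from each other in globin RNA, and the alpha and beta sums moved together. Over the 20 mice, deviations of the log2 CPM from the group mean had a Pearson's r of 0.91 and a Spearman's rho of 0.88 between the alpha and beta sums (permutation p = 0.0001 and 0.0002, adjusted p = 0.0004 and 0.00058 over 4 relations, 100000 permutations within groups, two-sided). Without the 2 mice farthest from the median, r was 0.86. *Slc4a1* went with the globin total at r = 0.62 and rho = 0.75 (permutation p = 0.00117 and 0.00029, adjusted p = 0.00234 and 0.00058), and at 0.58 without 2 mice. For *Alas2* and the globin total no relation passed the test, at r = -0.10 and rho = -0.03 (permutation p = 0.579 and 0.902, adjusted p = 0.579 and 0.902), and r was -0.16 without 2 mice. The relation of *Alas2* with *Slc4a1* had r = -0.36 and rho = -0.22 (permutation p = 0.25 and 0.354, adjusted p = 0.333 and 0.473), and r was -0.20 without 2 mice. The SD within groups on the log2 scale was 0.41 for the alpha sum, 0.46 for the beta sum, 0.64 for *Alas2* and 0.73 for *Slc4a1*.

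**Figure D4:**
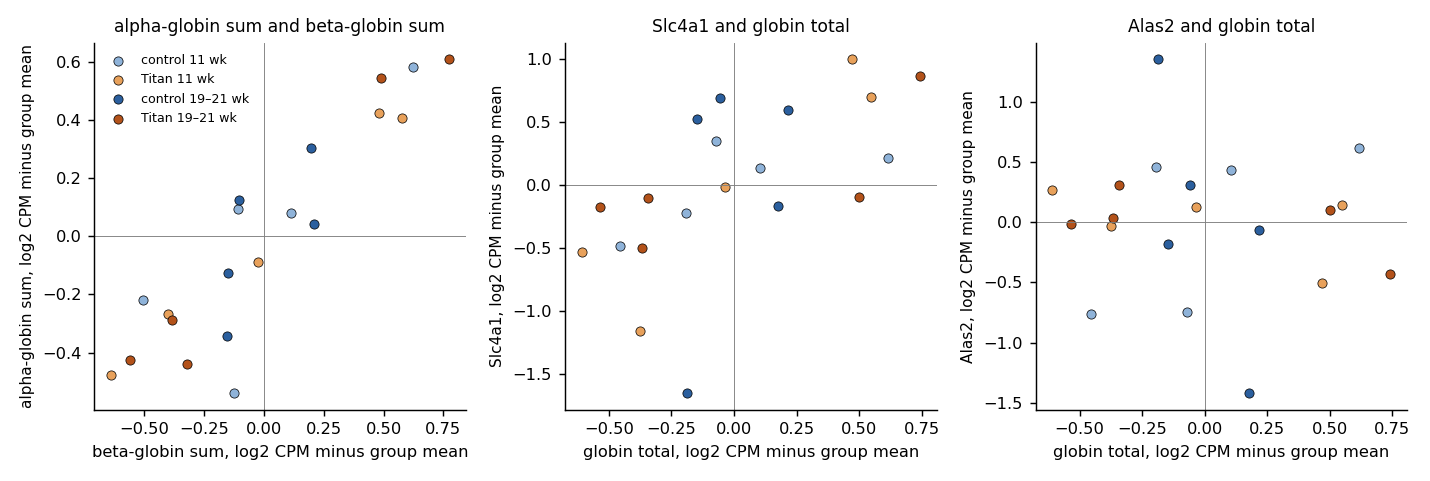
Deviation of each mouse from its group mean in log2 CPM, for the alpha against the beta sum (left), *Slc4a1* against the globin total (middle) and *Alas2* against the globin total (right), with colours for line and age. The 20 points rise together on the left (r = 0.91) and in the middle (r = 0.62), and those on the right (r = -0.10) did not pass the test.

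Among 13778 other genes, the 10 most like the globin total over the 20 mice included *Hspbap1* (r = 0.89) and *Acot9*, a mitochondrial thioesterase (r = 0.77), given as a description. They also included *Zfp280d* (r = 0.75), *Zfp976* (r = 0.75), *Mysm1* (r = 0.75), *Ccdc88a* (r = 0.69), *Fut10* (r = 0.68) and *Dzip3* (r = 0.68). The globin total is mostly *Hbb-bs* (r = 0.99 with it), and these values share library and depth.

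The other genes of the red cell, heme and iron were taken as 8 lists, which held 157 symbols, of which 156 were in the files and 123 were tested. In Titan against control at 11 weeks, 8 rose and 9 fell and 106 did not pass (13.8% of the list genes, against 14.9% of all genes, of which 7.23% rose and 7.7% fell). At 19–21 weeks, 9 rose and 7 fell and 107 did not pass (13% against 9.12% of all genes, of which 4.24% rose and 4.88% fell). The median log2 fold change was -0.04 at both ages, against -0.02 and 0.01 over all genes. Of 27 genes past the threshold at either age, 6 passed at both. In Titan mice 1 of the 123 changed with age (1.25% of all genes), and in controls 0 did. In controls 9 had an unadjusted p under 0.05 with edgeR, and 0 passed the adjusted threshold with DESeq2. The interaction of line and age passed for 0 of the 123 with edgeR (0.00725% of all genes). A list gene past the threshold at 1 age only is thus not shown to differ between the ages.

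Of 11 embryonic and minor globins, only *Cygb*, cytoglobin, was tested, and it did not pass at either age. The embryonic *Hba-x*, *Hbb-bh1* and *Hbb-y* had no read in any of the 20 mice, and *Hbq1a* and *Hbq1b* had at most 1.

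Of 12 erythroid transcription factors tested, 1 rose and 2 fell at 11 weeks, and 1 rose and 1 fell at 19–21 weeks. Over all genes tested, 7.23% rose and 7.7% fell at 11 weeks, and 4.24% rose and 4.88% fell at 19–21 weeks. These shares also stand beside the counts of the lists that follow, which are given as a description. *Klf1*, the Krüppel-like factor known to activate the adult beta-globin gene, fell most. It was at 1.81 ± 0.638 CPM in 11-week-old controls and 0.319 ± 0.119 in Titan mice of that age, and at 2.37 ± 0.207 and 0.351 ± 0.0600 at 19–21 weeks (SD, n = 5 each). The lines did not overlap, and the log2 fold change was -2.46 (SE 0.27, edgeR adjusted p = 5.27e-06) and -2.74 (SE 0.29, edgeR adjusted p = 6.76e-06). The Titan mice had only 2 to 7 reads at 11 weeks and 3 to 4 at 19–21 weeks. All Titan mice were below the filter's limit of 0.798 CPM and all controls above it. *Klf1* thus passed the filter through the controls alone. The beta sum had positive log2 fold changes in the same comparisons of the lines, and a link between it and *Klf1* was not tested. *Cbfa2t3*, a corepressor of erythroid genes, rose at both ages, by 0.73 on the log2 scale (edgeR adjusted p = 0.00405 and 0.0098). *E2f2*, a cell-cycle factor of erythroblasts, fell at 11 weeks by 1.06 on the log2 scale, just past the threshold (edgeR adjusted p = 0.0499). It was at -1.20 at 19–21 weeks, just short of it (edgeR adjusted p = 0.0519), and the interaction of line and age was -0.15 (SE 0.52, edgeR adjusted p = 0.97).

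Among 11 tested genes of the red-cell membrane and skeleton, 1 rose at 11 weeks, and 3 rose and 1 fell at 19–21 weeks. *Piezo1*, a mechanosensitive channel of red cells and endothelium, rose from 10.8 ± 1.46 to 19.1 ± 1.48 CPM at 11 weeks and from 11.2 ± 1.01 to 18.4 ± 3.07 at 19–21 weeks (edgeR adjusted p = 3.73e-05 and 0.000349), without overlap. *Sptb*, the erythroid spectrin beta chain, rose at 19–21 weeks by 1.29 on the log2 scale (edgeR adjusted p = 0.037) and was at 0.93 at 11 weeks (edgeR adjusted p = 0.0951). *Tspan33*, a tetraspanin of erythroid precursors, rose at 19–21 weeks from 13.7 ± 2.26 to 19.8 ± 2.23 CPM (edgeR adjusted p = 0.0289). *Gypc*, glycophorin C, fell from 8.71 ± 2.86 to 4.80 ± 0.932 CPM at that age (edgeR adjusted p = 0.0319). *Rhag*, *Rhd*, *Kel*, *Ermap* and *Add2* had at most 3 reads in any mouse.

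In heme synthesis and its mitochondrial supply, 20 genes were tested, of which 1 rose at 11 weeks and 1 rose and 1 fell at 19–21 weeks. *Flvcr1*, the heme exporter, rose from 6.20 ± 1.31 to 9.85 ± 1.15 CPM at 11 weeks and from 6.96 ± 0.870 to 10.8 ± 1.79 at 19–21 weeks (edgeR adjusted p = 0.00315 and 0.0102), without overlap. *Abcg2*, a transporter of porphyrins and drugs, fell at 19–21 weeks by 0.59 on the log2 scale (edgeR adjusted p = 0.02), and was at -0.45 at 11 weeks (edgeR adjusted p = 0.0558).

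The list of erythroid maturation held 31 tested genes, of which 3 rose and 2 fell at 11 weeks and 2 rose and 4 fell at 19–21 weeks. *Car1*, a carbonic anhydrase of red cells, fell from 7.19 ± 1.01 to 2.73 ± 0.354 CPM at 11 weeks and from 6.46 ± 1.48 to 3.55 ± 1.45 at 19–21 weeks (edgeR adjusted p = 0.000142 and 0.0154). *Car2*, another carbonic anhydrase, rose at 11 weeks from 4.87 ± 0.728 to 9.46 ± 2.16 CPM (edgeR adjusted p = 0.000659). At 19–21 weeks *Car2* was at 0.52 on the log2 scale (edgeR adjusted p = 0.0836), and its interaction of line and age was -0.44 (edgeR adjusted p = 0.653). *Ncoa4*, which delivers ferritin for breakdown, fell at both ages by 0.54 and 0.42 on the log2 scale (edgeR adjusted p = 0.000657 and 0.0096). *Cd36*, a fatty acid receptor that many cell types carry, rose at 11 weeks from 42.5 ± 27.6 to 240.4 ± 106.0 CPM (edgeR adjusted p = 0.000713). *Blvrb*, which reduces biliverdin, rose at 19–21 weeks from 46.4 ± 12.5 to 74.7 ± 11.1 CPM (edgeR adjusted p = 0.00662). Several of these genes are also made by hepatocytes or endothelium, and the counts do not say which cells the reads came from.

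In the clearance of hemoglobin and heme, 16 genes were tested, of which 1 rose and 3 fell at 11 weeks and 1 rose at 19–21 weeks. *Hp*, haptoglobin, the plasma protein that binds free hemoglobin, rose at 19–21 weeks from 1072 ± 57.6 to 1752 ± 406 CPM (edgeR adjusted p = 0.00555, no overlap), and was at -0.01 on the log2 scale at 11 weeks. *Slc40a1*, ferroportin, the iron exporter, rose at 11 weeks from 248.5 ± 25.7 to 389.5 ± 71.2 CPM (edgeR adjusted p = 0.00463). At 19–21 weeks *Slc40a1* was at 0.46 on the log2 scale (edgeR adjusted p = 0.0585), and its interaction of line and age was -0.19 (edgeR adjusted p = 0.855). *Hmox2*, a heme oxygenase, fell at 11 weeks by 0.45 on the log2 scale (edgeR adjusted p = 0.00176). *Gstp1*, a glutathione transferase with close paralogs, fell at 11 weeks by 1.89 on the log2 scale (edgeR adjusted p = 5.99e-05). It was also the 1 list gene that changed with age in Titan mice, by 1.07 (SE 0.26, edgeR adjusted p = 0.0476). That count moved between 0 and 6 when each mouse was left out in turn.

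For iron, 18 genes were tested, of which 1 rose and 2 fell at 11 weeks and 0 passed at 19–21 weeks. *Hamp2*, a paralog of hepcidin, rose at 11 weeks from 0.934 ± 1.22 to 16.8 ± 5.20 CPM (log2 fold change 4.20, SE 0.67, edgeR adjusted p = 0.000213, no overlap). It was at 1.29 ± 1.24 and 4.34 ± 2.94 CPM at 19–21 weeks (edgeR adjusted p = 0.108). All Titan mice were above the filter's limit of 0.798 CPM, with at least 11.4 CPM at 11 weeks and 1.63 at 19–21 weeks. The controls ranged from 0.0833 to 2.97 CPM and from 0 to 2.57 CPM. *Hamp2* thus passed the filter mostly through the Titan mice. *Trf*, transferrin, and *Ireb2*, an iron regulatory protein, fell at 11 weeks by 0.39 and 0.32 on the log2 scale (edgeR adjusted p = 0.0454 and 0.0224). *Epo*, erythropoietin, had no read in any mouse. In the axis of the hypoxia-inducible factors, 0 of 14 passed at 11 weeks and 1 at 19–21 weeks, which was *Epas1*, a hypoxia-inducible factor subunit, at 166.5 ± 15.6 and 207.9 ± 15.2 CPM (edgeR adjusted p = 0.0206).

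**Figure D5:**
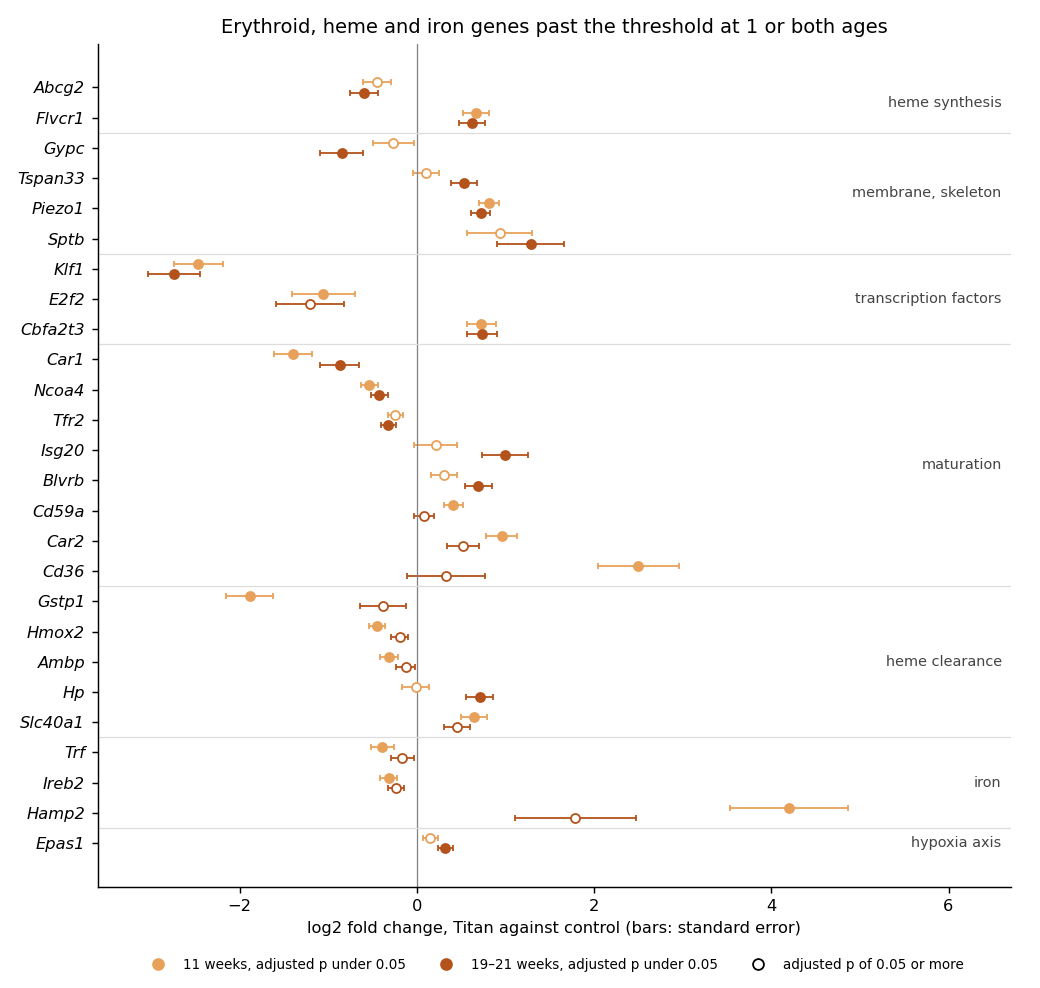
Log2 fold change of Titan against control with its standard error at 11 and 19–21 weeks, for 26 of the 27 list genes past the threshold at either age, grouped by list, with filled points for an adjusted p under 0.05. *Klf1* is the lowest at both ages (-2.46 and -2.74) and *Hamp2* the highest at 11 weeks (4.20).

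Markers of other cells in blood were measured beside the globins. The summed level of 12 neutrophil markers was 1.83 to 4.27 CPM in 11-week-old controls and 5.25 to 9.03 in Titan mice, and 1.26 to 4.61 and 5.35 to 8.60 at 19–21 weeks, so it did not overlap between the lines. Over all genes tested, 11.9% did not overlap at 11 weeks and 7.62% at 19–21 weeks. The defining *Ly6g* and *Retnlg* had at most 3 reads in any mouse, and *Lcn2*, which hepatocytes also make, was the 1 of 2 tested that rose at both ages. *Lcn2* alone had means of 1.16 and 3.63 CPM in younger controls and Titan mice, beside sum medians of 2.62 and 5.94. In the older ones its means were 1.18 and 3.72 CPM, beside 2.86 and 7.07. Much of the difference in the sum was thus *Lcn2*. The 12 platelet markers summed to 13.7 to 17.6 and 13.5 to 19.99 CPM in the younger controls and Titan mice and to 15.2 to 24.7 and 14.95 to 26.65 in the older ones, with 0 of 4 tested past the threshold and *Gp1bb* and *Treml1* without a read. Of the lymphocyte markers 2 of 12 were tested. *Cd3e*, a T-cell receptor subunit, rose by 3.94 and 2.02 on the log2 scale (edgeR adjusted p = 0.000224 and 0.0348) and *Cd4* fell by 1.71 at 11 weeks (edgeR adjusted p = 0.0075), while their list summed to 3.86 to 7.25 CPM over all mice. None of 12 markers of Kupffer cells and red pulp macrophages passed at either age, with sums of 131.7 to 379.1 CPM over all mice. Of 10 endothelial markers, 1 rose and 2 fell at 11 weeks and 2 fell at 19–21 weeks. Of 11 hepatocyte markers 5 fell at 11 weeks and 0 passed at 19–21 weeks, with a median log2 fold change of -0.30 and -0.05. Over all genes, 7.23% rose and 7.7% fell at 11 weeks, and 4.24% rose and 4.88% fell at 19–21 weeks. The part of these cells in the globin counts was not tested.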

How the data were processed

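Liver RNA of 20 male mice was sequenced after rRNA depletion with directional libraries. The authors mapped reads to GRCm38 with STAR 2.5.3a and deposited counts of reads per gene without normalization. Multimapped and ambiguous reads were removed, so reads that match both copies of a globin are lost. The mice may differ from the reference sequence, and its part in the counts was not tested. The sense-strand column was used (96.83% to 97.55% of strand-assigned reads). Symbols, loci and transcripts are those of GENCODE M21 (55480 of 55573 identifiers matched), and promoters those of RefSeq. For promoters, 5 of the 6 genes matched.

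As in the study's methods, 1562 Y-linked and 109 histone genes did not enter the fit. Counts of 13784 genes that passed filterByExpr were fitted with edgeR 4.0.16 in R 4.3.3 (TMM, quasi-likelihood test, 1 fit of the 4 groups, Benjamini-Hochberg adjustment, threshold 0.05). SEs were derived from the log2 fold change and its F statistic. Log2 CPM used a prior count of 2. DESeq2 1.42.0 was an alternative, and the others were another normalization, counts over both strands, other filters, only the groups compared, the replicate number, other library sizes, genes kept and each mouse left out. Tables and figures used Python 3.11.15. On simulated counts of the 11-week comparison (13629 genes), 80 of 100 genes changed by 1 and 100 of 100 changed by 2 on the log2 scale were found, with 9 false of 189 calls. Every gene was simulated with the same dispersion of 0.05, so these rates do not carry over to genes that vary more between mice, such as *Alas2*.

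The genes and lists were chosen with earlier results of these data known. The lists' named genes are up to 3 per direction and comparison, those with the smallest p. The others named are from the defining erythroid genes and the 10 genes most like the globin total, some of which are not reported here. Mice are biological replicates per the series' description, and no pair of libraries agreed within sampling noise.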

Additional observations from a re-analysis of the deposited data

Results flagged for a closer look

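In 14 of 221 groups of 5 mice tested, 1 mouse stood far from the other 4, and chance alone flags about 5% of such groups. *Hba-a2* in controls was flagged at 0.0690 CPM at 11 weeks and 0.0540 CPM at 19–21 weeks, each of which is a single read beside 4 mice with none. *Hbb-bt* reached 17.1 CPM in 1 of the 11-week-old controls (group median 6.66) and 13.8 CPM in 1 of the 11-week-old Titan mice (median 6.62). *Slc4a1* reached 2.45 CPM in 1 of the 19–21-week-old Titan mice (median 1.17), the mouse that was also highest for *Hbb-bs* and *Hbb-bt*.

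Of the list genes, *Hp* stood at 1881 CPM in 1 of the 11-week-old Titan mice (median 1256) and at 2461 CPM in 1 of the 19–21-week-old Titan mice (median 1554). *Trf* stood at 1559 CPM in 1 of the 11-week-old Titan mice (median 1247), and *Epas1* at 207.6 CPM in 1 of the 11-week-old controls (median 163.1). Among markers, *Cd3e* stood at 2.24 CPM in 1 of the 19–21-week-old controls (median 0.252), *Kdr* at 82.02 CPM in 1 of the 11-week-old Titan mice (median 71.8) and *Lyve1* at 18.2 CPM in 1 of the 19–21-week-old controls (median 5.83). *Zfp976* stood at 9.62 CPM in 1 of the 11-week-old controls (median 6.83) and at 6.68 CPM in 1 of the 19–21-week-old controls (median 7.89).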

How the results depend on the processing

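The count of list genes past the threshold stayed at 0 in the age comparison of controls. In the age comparison of Titan mice the count moved by over 1.5 times. Several log2 fold changes without a call also did when 1 mouse was left out, such as those of Titan against control for *Hba-a1* at 11 weeks (-0.44 to -0.15), *Hbb-bt* at 11 weeks (-0.32 to 0.35), *Alas2* at 19–21 weeks (0.11 to 0.83) and the beta sum at 19–21 weeks (0.34 to 0.70). In Titan mice the count of 1 became 5 with DESeq2, 3 with RLE size factors, 4 without a filter on low counts and 3 with a mean of at least 10 counts. Leaving out each mouse gave 0 to 6. For the interaction of line and age, the count of 0 became 1 with DESeq2 (*Gstp1*), and leaving out each mouse gave 0 to 1, while edgeR gave 11 at an unadjusted p under 0.05. These counts sit at the threshold, and the cause was not tested. For Titan against control, the alternatives gave 13 to 20 at 11 weeks (17 as reported) and 11 to 21 at 19–21 weeks (16 as reported). Of these calls, 12 of 17 and 7 of 16 held in all 29 alternatives each, and none reversed. *Ambp* and *Trf* at 11 weeks and *Ube2l6* and *Sptb* at 19–21 weeks were lost in 17, 16, 13 and 10 of them, and *E2f2* in 18. The replicate numbers did not pair the mice (correlations of same-numbered mice from -0.144 to 0.175), and with the replicate block the counts were 16 and 13 for the lines, and 1 and 0 for the ages. The alpha sum stayed between 0.34 and 0.65 and the beta sum between 0.27 and 0.70 for Titan against control over both ages and all alternatives. At these depths *Slc4a1* (1 to 42 reads) and *Hba-a2* in controls (0 or 1 read) are limited by counting.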
